A study of Mus musculus with 10 samples.

Results

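The Kruppel-like factors described here are the 7 genes Klf2, Klf3, Klf4, Klf6, Klf7, Klf10 and Klf13, chosen by symbol, and all 7 were among the 11617 genes of the expression table and among the 11407 genes that were tested. Messenger RNA was sequenced from macrophages grown out of the bone marrow of C57BL/6 mice in medium that held 50 ng/ml of the myeloid growth factor GM-CSF and 10% fetal bovine serum. One label gives the mice as 7 weeks old and another as 6 weeks. The cells received AmTARS for 3 h or 1 h, Pam3csk4 for 3 h or 1 h, or neither (control), with 2 libraries in each of the 5 groups (n = 2 per group). AmTARS is read here as a bacterial threonyl-tRNA synthetase, made by Akkermansia muciniphila of the gut. Pam3csk4 is a synthetic lipopeptide that activates Toll-like receptor TLR2. The question put by the series is how the cells respond to each as a TLR2 ligand. Pam3csk4 was given at 10 ng/ml and the AmTARS dose is written as 0.5 with the unit mm, so the doses cannot be set against each other. The control has no time label. Whether 2 libraries of a group stem from different cultures or mice is not labelled, so p-values measure the spread between these libraries, which may be technical.

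Kruppel-like factors are transcription factors that bind GC-rich and CACCC sequences through zinc fingers at the C-terminal end of the protein, a trait they share with the Sp factors. Some of them mainly activate genes and others recruit corepressors such as CtBP or Sin3a. In mouse macrophages Klf2 is known as a factor of the resting state that restrains NF-kB targets, Klf4 as a factor of monocyte differentiation and alternative activation, and Klf6 as a partner of inflammatory activation.

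Reads in the listed genes numbered 27398791 to 37559810 per library. All 8 macrophage markers examined had values, with a summed level of 50530 to 53360 CPM (read counts scaled to a common library size) with AmTARS at 3 h and 49270 to 50990 CPM in control. Of 6 dendritic cell markers, Ccr7 and Itgax had values, with sums of 59.4 to 69.1 CPM over all libraries, and Flt3, Zbtb46, Dpp4 and Cd209a had no row in the table used here. Neutrophil markers (6 of 7 with values) summed to 1629 to 1716 CPM with AmTARS at 3 h, 1650 to 1700 CPM with AmTARS at 1 h, 1806 to 2112 CPM with Pam3csk4 at 3 h, 1647 to 1982 CPM with Pam3csk4 at 1 h and 1234 to 1317 CPM in control. Fibroblast markers (4 of 4) summed to 1253 to 1487 CPM over the treated libraries and to 1463 to 1552 CPM in control. The endothelial markers Pecam1 and Kdr summed to 15.5 to 21.6 CPM over the treated libraries and to 24.7 to 25.3 CPM in control, and Cdh5 and Tek had no row. Cd4 was the 1 T cell marker of 5 with a row, at 9.19 to 11.8 CPM over the treated libraries and 12.6 to 13.4 CPM in control, and Cd79b the 1 B cell marker of 4. Mast cell markers (3 of 4) summed to 9.66 to 12.04 CPM over all libraries. None of 3 NK cell and 4 erythroid markers had a row. The part of these cells in the results on the Kruppel-like factors was not tested. In such bulk samples, fewer cells of a type and less RNA per cell cannot be told apart.

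The promoters of Klf2, Klf7 and Klf3 are shown because these are the 3 factors whose group means spanned the widest range on the log2 scale (0.58 for Klf2, 1.12 for Klf7 and 0.53 for Klf3). Each run is the 250 bases before the RefSeq start site on the strand of the gene (build GRCm38.p6), 5′ to 3′, at chr8:72318812-72319061 (plus strand) for Klf2, chr1:64121390-64121639 (minus strand) for Klf7 and chr5:64803271-64803520 (plus strand) for Klf3. Capitals mark CACCC boxes (CCACCC, read on both strands), the kind of element that the family binds, and in Klf2 also a site for MEF2, a factor downstream of the kinase ERK5. By the GENCODE M21 annotation, from which the gene positions below are taken, these genes start elsewhere. The Klf7 gene begins there at 64122282, so its whole run lies within the gene. Klf2 begins at 72319033 and Klf3 at 64803388, each within its run. All CACCC boxes marked in the 3 runs lie past these starts.
Klf2: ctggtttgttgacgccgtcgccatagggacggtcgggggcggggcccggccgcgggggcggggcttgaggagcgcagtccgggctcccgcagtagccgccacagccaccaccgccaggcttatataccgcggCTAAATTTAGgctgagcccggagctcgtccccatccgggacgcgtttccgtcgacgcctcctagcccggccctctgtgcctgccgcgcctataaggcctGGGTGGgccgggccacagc
Klf7: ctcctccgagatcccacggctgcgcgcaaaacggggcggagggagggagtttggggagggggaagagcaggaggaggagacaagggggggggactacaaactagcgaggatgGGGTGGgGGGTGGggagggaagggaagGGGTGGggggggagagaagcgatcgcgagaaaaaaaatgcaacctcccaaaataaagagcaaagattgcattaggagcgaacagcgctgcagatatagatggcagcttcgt
Klf3: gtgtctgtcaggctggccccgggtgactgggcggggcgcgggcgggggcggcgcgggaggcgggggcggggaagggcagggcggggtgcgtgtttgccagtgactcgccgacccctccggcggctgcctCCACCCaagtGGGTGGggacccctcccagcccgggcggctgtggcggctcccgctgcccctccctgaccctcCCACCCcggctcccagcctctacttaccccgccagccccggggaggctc
Klf7 and Klf3 each held 3 CACCC boxes in this window and Klf2 held 1. Of 27025 promoters of the same length, 27.7% held at least 1 and 1.72% at least 3, and among the 8957 promoters of genes in the expression table the shares were 32.7% and 1.96%. The MEF2 site of Klf2 begins 118 bases before the start, and 3.01% of all promoters and 1.44% of those of genes in the table held such a site. GC boxes (GGGCGG on either strand, with no base shared with a CACCC box in these 3 promoters) numbered 2 in Klf2, 1 in Klf7 and 6 in Klf3, and 32.9% of all promoters and 60.3% of those of genes in the table held at least 1. None of the 6 members with a listed promoter held the AP-1 letters TGANTCA, an NF-kB site, the TATA letters TATAAA or a CArG box in this window. Of all promoters 6.87% held the AP-1 letters, 1.40% the NF-kB site, 12.97% the TATA letters and 1.40% a CArG box, and the shares among those of genes in the table were 4.32%, 1.53%, 6.02% and 1.17% in that order. The letters TGACG, part of a cyclic AMP response element, occurred 1 time each in Klf2, Klf4 and Klf13. They stood in 17.9% of all promoters and 28.0% of those of genes in the table. No member held the whole element TGACGTCA, held by 1.62% and 2.77%. Klf10 had no entry.

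Of the 7 factors, Klf2 was higher and Klf3, Klf7, Klf10 and Klf13 were lower than in control with AmTARS at 3 h, with AmTARS at 1 h and with Pam3csk4 at 1 h. With Pam3csk4 at 3 h the factors past the test were Klf6, which was higher, and Klf3, Klf4 and Klf13, which were lower. The test was limma on the deposited log2(CPM + 1) values with Benjamini-Hochberg adjustment over all tested genes, and a gene is said to change where its adjusted p was below 0.05. So 5 of 7 changed with AmTARS at 3 h beside 36.7% of all tested genes (18.8% higher, 17.9% lower), and 5 of 7 with AmTARS at 1 h beside 38.7% (18.9% higher, 19.8% lower). With Pam3csk4 at 3 h 4 of 7 changed beside 48.9% (24.7% higher, 24.2% lower), and at 1 h 5 of 7 beside 48.7% (23.9% higher, 24.8% lower). These 4 comparisons share the same 2 control libraries. The median log2 fold change of the 7 was -0.19 with AmTARS at 3 h, -0.26 with AmTARS at 1 h, -0.10 with Pam3csk4 at 3 h and -0.22 with Pam3csk4 at 1 h, while that of all tested genes lay between -0.01 and 0.00.

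**Figure D1:**
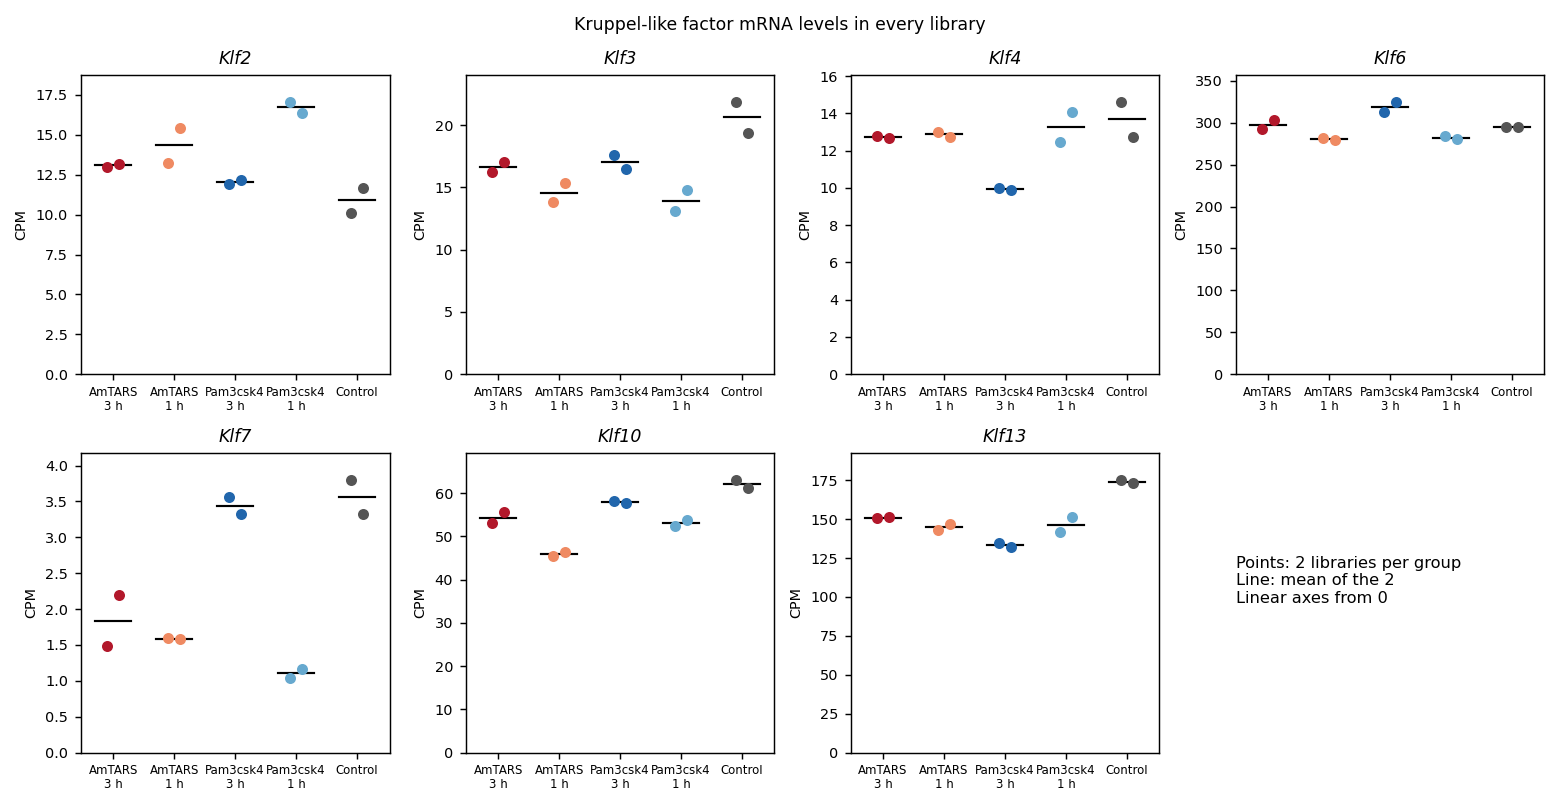
Level of each Kruppel-like factor in CPM (vertical axes, linear from 0) in the 2 libraries of each group (points) with their mean (line). Klf7 lies between 1.04 and 2.19 CPM in the AmTARS libraries and those of Pam3csk4 at 1 h, and between 3.32 and 3.80 CPM with Pam3csk4 at 3 h and in control.

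In every treated group, long transcripts were lower and short ones higher than in control. Spearman's rho across 11364 genes, which are not independent replicates, was -0.67 with AmTARS at 3 h, -0.74 with AmTARS at 1 h, -0.51 with Pam3csk4 at 3 h and -0.74 with Pam3csk4 at 1 h. The longest transcripts of Klf7, Klf13 and Klf3 run to 7662, 6396 and 5221 nt and that of Klf2 to 1847 nt. Each result was therefore computed a second time, with length and GC content fitted and taken out library by library. So corrected, 3 of 7 factors changed beside 18.4% of genes with AmTARS at 3 h and 3 of 7 beside 13.9% with AmTARS at 1 h. With Pam3csk4 the counts were 3 of 7 beside 42.0% at 3 h and 4 of 7 beside 22.8% at 1 h. Klf7 and Klf10 were lower in both fits with AmTARS at 3 h, and Klf3, Klf7 and Klf10 in both with either ligand at 1 h.

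**Figure D2:**
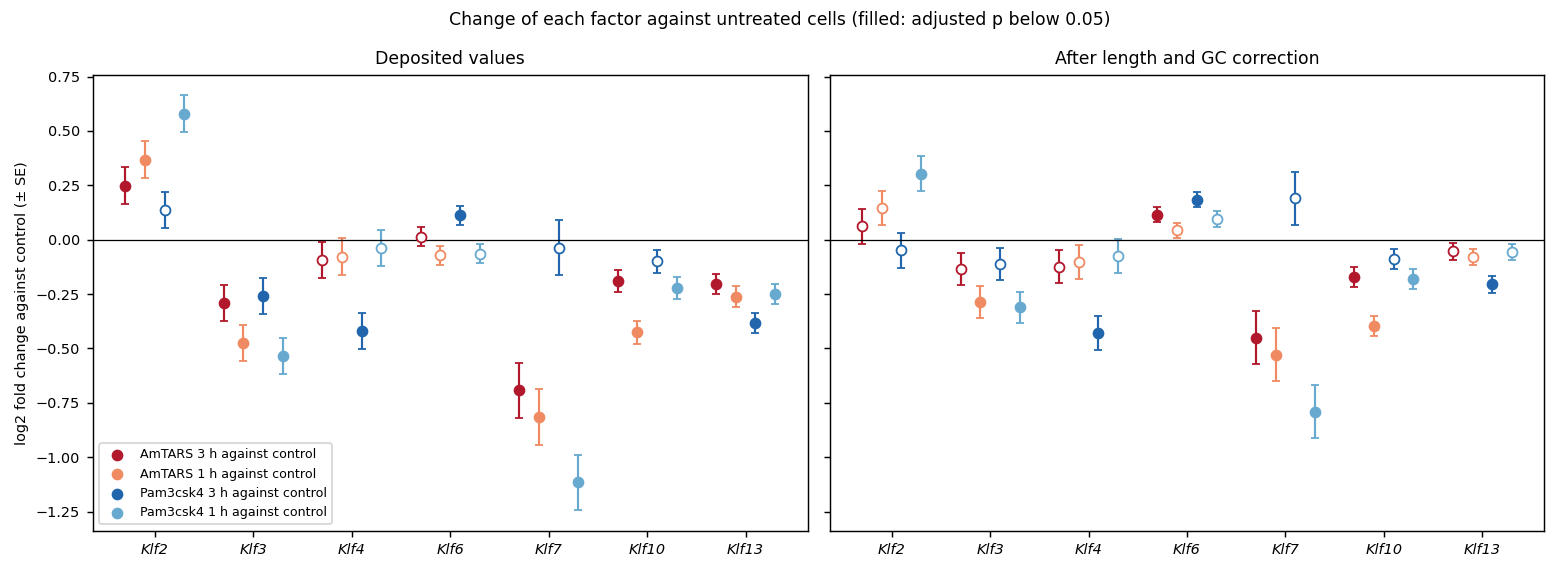
Log2 fold change against control (vertical axis, ± SE) of each factor in the 4 treated groups, from the deposited values (left) and after the length and GC correction (right), with filled points where the adjusted p was below 0.05. Klf7 falls by 1.12 with Pam3csk4 at 1 h as deposited and by 0.79 after the correction.

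Klf7 (chromosome 1, 64029447 to 64122282, minus strand, build mm10), an activator best known from the growth of neurons, gave the largest changes of the family. It had 1.48 and 2.19 CPM with AmTARS at 3 h and 1.60 and 1.58 CPM with AmTARS at 1 h. With Pam3csk4 Klf7 had 3.56 and 3.33 CPM at 3 h and 1.04 and 1.17 CPM at 1 h, against 3.80 and 3.32 CPM in control. Every AmTARS library and both Pam3csk4 libraries of 1 h lay under every control library, while the libraries of Pam3csk4 at 3 h overlapped with control. The group mean was 51.7% of control with AmTARS at 3 h, 44.6% with AmTARS at 1 h, 96.7% with Pam3csk4 at 3 h and 31.0% with Pam3csk4 at 1 h. These levels rest on 28 to 133 reads per library, the lowest of the 7 factors.

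On the log2 scale Klf7 fell by 0.69 with AmTARS at 3 h (SE 0.13, adjusted p = 0.000409), by 0.81 with AmTARS at 1 h (SE 0.13, adjusted p = 8.76e-05) and by 1.12 with Pam3csk4 at 1 h (SE 0.13, adjusted p = 1.56e-06) in limma. With Pam3csk4 at 3 h its log2 fold change was -0.04 (95% interval -0.30 to 0.23). A larger change in size was seen in 0.544%, 0.254% and 0.202% of tested genes for the first 3 of these comparisons. The 3 falls, corrected for length and GC, stood at 0.45 (adjusted p = 0.0125), 0.53 (adjusted p = 0.00519) and 0.79 (adjusted p = 6.36e-05). Since the deposited values hold a pseudocount of 1 CPM, they understate changes at this level, and with 0.25 CPM the log2 fold change of Klf7 with Pam3csk4 at 1 h was -1.49. Klf7 is overlapped by the annotated noncoding genes Gm26649 and Gm13748 on the other strand and by Mir6899 on its own strand, and whether the authors' counting used strand is not given in the sources used here.

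Klf2 (chromosome 8, 72319033 to 72321656, plus strand), the factor of the resting state, rose in 3 of the 4 treated groups. It had 13.0 and 13.2 CPM with AmTARS at 3 h and 13.2 and 15.4 CPM with AmTARS at 1 h. With Pam3csk4 Klf2 had 11.9 and 12.2 CPM at 3 h and 17.1 and 16.4 CPM at 1 h, against 10.1 and 11.7 CPM in control. All treated libraries lay above both control libraries, and those of Pam3csk4 at 1 h were the highest. The log2 fold change was 0.25 with AmTARS at 3 h (SE 0.08, adjusted p = 0.0273), 0.37 with AmTARS at 1 h (SE 0.08, adjusted p = 0.00217) and 0.58 with Pam3csk4 at 1 h (SE 0.08, adjusted p = 1.97e-05) in limma.

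With Pam3csk4 at 3 h Klf2 stood at 0.14 against control (adjusted p = 0.193), and it was lower there than with Pam3csk4 at 1 h by 0.44 (SE 0.08, adjusted p = 0.000424). Corrected for length and GC, Klf2 was higher with Pam3csk4 at 1 h (0.30, adjusted p = 0.00794), and its values with AmTARS were 0.06 at 3 h (adjusted p = 0.663) and 0.15 at 1 h (adjusted p = 0.256). The change with AmTARS at 1 h did not pass without AmTARS 1 h replicate 3 (0.26, adjusted p = 0.0542) or without control replicate 2 (0.27, adjusted p = 0.0579). That with AmTARS at 3 h did not pass without either AmTARS 3 h library (adjusted p = 0.101 without replicate 1 and 0.102 without replicate 3) or without control replicate 2 (0.15, adjusted p = 0.292). With Pam3csk4 at 1 h Klf2 passed whichever of the 10 libraries was left out. It did not pass in limma with the replicate number as a block and the length and GC correction together (0.24, adjusted p = 0.0792).

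Klf4 (chromosome 4, 55527143 to 55532466, minus strand), the factor of monocyte differentiation, changed with Pam3csk4 at 3 h. It had 12.8 and 12.7 CPM with AmTARS at 3 h and 13.0 and 12.7 CPM with AmTARS at 1 h. With Pam3csk4 Klf4 had 9.99 and 9.91 CPM at 3 h and 12.4 and 14.1 CPM at 1 h, against 14.6 and 12.7 CPM in control. Both libraries of Pam3csk4 at 3 h lay below the other 8, which overlapped with each other. Against control Klf4 fell by 0.42 there (SE 0.08, adjusted p = 0.000333), and by 0.43 after the length and GC correction (adjusted p = 0.000102), in limma. The other 3 treated groups stood at -0.09 with AmTARS at 3 h (95% interval -0.27 to 0.08), -0.08 with AmTARS at 1 h (-0.25 to 0.10) and -0.04 with Pam3csk4 at 1 h (-0.21 to 0.13). Relative to Pam3csk4 at 1 h, Klf4 fell by 0.38 with Pam3csk4 at 3 h (SE 0.08, adjusted p = 0.00143).

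Klf6 (chromosome 13, 5861482 to 5870394, plus strand), a partner of inflammatory activation, was the most abundant of the 7, also per transcript length, and moved little. It had 292 and 303 CPM with AmTARS at 3 h and 282 and 279 CPM with AmTARS at 1 h. With Pam3csk4 Klf6 had 313 and 325 CPM at 3 h and 284 and 280 CPM at 1 h, against 294 and 295 CPM in control. The libraries of both ligands at 1 h lay below control and those of Pam3csk4 at 3 h above it. Its log2 fold change with Pam3csk4 at 3 h was 0.11 (SE 0.04, adjusted p = 0.0373) against control and 0.18 (SE 0.04, adjusted p = 0.00373) against Pam3csk4 at 1 h in limma. The first of these depended on the scaling, with 0.02 (adjusted p = 0.643) when CPM was taken over the reads in the listed genes, -0.01 (adjusted p = 0.815) after quantile scaling and 0.18 (adjusted p = 0.000201) after the length and GC correction. It also failed the test without AmTARS 3 h replicate 1 or 3 (adjusted p = 0.0502 each), without Pam3csk4 3 h replicate 3 (0.08, adjusted p = 0.193) and without control replicate 2 (adjusted p = 0.138) or 3 (adjusted p = 0.113).

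Against control Klf6 stood at 0.01 with AmTARS at 3 h (95% interval -0.08 to 0.10), -0.07 with AmTARS at 1 h (-0.16 to 0.02) and -0.06 with Pam3csk4 at 1 h (-0.15 to 0.03), none past the test. With CPM over the reads in the listed genes it was lower at 1 h with AmTARS (-0.14, adjusted p = 0.0107) and with Pam3csk4 (-0.13, adjusted p = 0.0115), and likewise after quantile scaling (-0.12 each, adjusted p = 0.0157 and 0.0169). With the length and GC correction these 1 h values were 0.04 and 0.09 and did not pass, and Klf6 was higher with AmTARS at 3 h (0.12, adjusted p = 0.0235). Its call against Pam3csk4 at 1 h was lost after that correction (0.09, adjusted p = 0.0555). No direction of Klf6 against control thus held under every scaling.

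Klf3 (chromosome 5, 64803388 to 64832901, plus strand), a repressor that works through CtBP, fell in all 4 treated groups. It had 16.3 and 17.1 CPM with AmTARS at 3 h and 13.8 and 15.3 CPM with AmTARS at 1 h. With Pam3csk4 Klf3 had 17.6 and 16.5 CPM at 3 h and 13.1 and 14.8 CPM at 1 h, against 21.9 and 19.4 CPM in control. All treated libraries lay under both control libraries, and the libraries of 3 h lay above those of 1 h for each ligand. The fall on the log2 scale was 0.29 with AmTARS at 3 h (SE 0.08, adjusted p = 0.00932), 0.47 with AmTARS at 1 h (SE 0.08, adjusted p = 0.000211), 0.26 with Pam3csk4 at 3 h (SE 0.08, adjusted p = 0.013) and 0.53 with Pam3csk4 at 1 h (SE 0.08, adjusted p = 3.35e-05) in limma.

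Klf3, corrected for length and GC, was lower at 1 h with AmTARS (-0.29, adjusted p = 0.0113) and with Pam3csk4 (-0.31, adjusted p = 0.00365), and its values at 3 h were -0.13 with AmTARS (adjusted p = 0.229) and -0.11 with Pam3csk4 (adjusted p = 0.231). The falls of Klf3 at 3 h also failed the test without control replicate 2 (adjusted p = 0.145 with AmTARS and 0.177 with Pam3csk4), without AmTARS 3 h replicate 1 (adjusted p = 0.0882) and without Pam3csk4 3 h replicate 3 (adjusted p = 0.105). Relative to 1 h, Klf3 was higher at 3 h with Pam3csk4 by 0.27 (SE 0.08, adjusted p = 0.0154), a call lost without Pam3csk4 1 h replicate 1 (0.19, adjusted p = 0.187) or Pam3csk4 3 h replicate 2 (0.23, adjusted p = 0.0977). With AmTARS that difference was 0.18 (SE 0.08, adjusted p = 0.367). The noncoding gene Gm20033 overlaps Klf3 on the other strand, and C230096K16Rik overlaps it on the same strand.

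Klf10 (chromosome 15, 38291463 to 38300706, minus strand), first known as a gene induced early by TGF-beta and a repressor that binds Sin3a, fell most with AmTARS at 1 h. It had 53.0 and 55.7 CPM with AmTARS at 3 h and 45.5 and 46.4 CPM with AmTARS at 1 h. With Pam3csk4 Klf10 had 58.1 and 57.6 CPM at 3 h and 52.3 and 53.9 CPM at 1 h, against 63.0 and 61.1 CPM in control. Every treated library lay under both control libraries, and the pair of AmTARS at 1 h lay under all other libraries. The log2 fold change was -0.19 with AmTARS at 3 h (SE 0.05, adjusted p = 0.00803), -0.43 with AmTARS at 1 h (SE 0.05, adjusted p = 1.11e-05), -0.10 with Pam3csk4 at 3 h (SE 0.05, adjusted p = 0.122) and -0.22 with Pam3csk4 at 1 h (SE 0.05, adjusted p = 0.00168) in limma. Its longest transcript, of 3044 nt, is near the middle of the tested genes, and the length and GC correction left it at -0.17, -0.39, -0.09 and -0.18 in the same order, with the same 3 groups past the test.

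Between the times, Klf10 was higher with AmTARS at 3 h than at 1 h by 0.24 (SE 0.05, adjusted p = 0.0162), the 1 member of 7 past the test in that comparison beside 2.38% of genes, as after the correction beside 4.13%. That call was lost without AmTARS 1 h replicate 2 (adjusted p = 0.19) or 3 (adjusted p = 0.0767) and without AmTARS 3 h replicate 3 (0.20, adjusted p = 0.296). The fall of Klf10 with AmTARS at 3 h was lost without AmTARS 3 h replicate 1 (-0.16, adjusted p = 0.113) or control replicate 2 (-0.17, adjusted p = 0.0816). With Pam3csk4 at 3 h Klf10 passed as lower after quantile scaling (-0.13, adjusted p = 0.0393) and with CPM over the reads in the listed genes (-0.19, adjusted p = 0.00874).

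Klf13 (chromosome 7, 63886351 to 63938915, minus strand), a repressor also known from T cells as an activator of the chemokine gene Ccl5, was lowest with Pam3csk4 at 3 h. It had 151 and 151 CPM with AmTARS at 3 h and 143 and 147 CPM with AmTARS at 1 h. With Pam3csk4 Klf13 had 135 and 132 CPM at 3 h and 142 and 151 CPM at 1 h, against 175 and 173 CPM in control. The 8 treated libraries lay under both control libraries, and the pair of Pam3csk4 at 3 h lay lowest. The log2 fold change was -0.20 with AmTARS at 3 h (SE 0.05, adjusted p = 0.00218), -0.26 with AmTARS at 1 h (SE 0.05, adjusted p = 0.000242), -0.38 with Pam3csk4 at 3 h (SE 0.05, adjusted p = 1.36e-06) and -0.25 with Pam3csk4 at 1 h (SE 0.05, adjusted p = 0.000205) in limma.

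The fall of Klf13 with Pam3csk4 at 3 h also passed after the correction (-0.21, adjusted p = 0.000152), while its other values were -0.05 with AmTARS at 3 h, -0.08 with AmTARS at 1 h and -0.06 with Pam3csk4 at 1 h and did not (adjusted p from 0.18 to 0.372). With Pam3csk4, Klf13 was lower at 3 h than at 1 h by 0.13 (SE 0.05, adjusted p = 0.0339), a call lost without Pam3csk4 1 h replicate 3 (-0.09, adjusted p = 0.259) and without Pam3csk4 3 h replicate 2 (adjusted p = 0.0504) or 3 (adjusted p = 0.113). The gene E030018B13Rik and the noncoding gene Gm27252 overlap Klf13 on the other strand.

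With Pam3csk4, 6 of 7 factors differed between 3 h and 1 h beside 31.5% of genes, and 5 of 7 beside 33.5% after the length and GC correction. Klf3, Klf6 and Klf7 were higher at 3 h and Klf2, Klf4 and Klf13 were lower. Klf7 was higher by 1.08 (SE 0.13, adjusted p = 1.35e-06), and its mean at 3 h was 312% of that at 1 h. With AmTARS the same difference of Klf7 was 0.12 (95% interval -0.14 to 0.39). The difference between these changes, tested as an interaction of ligand and time, passed for Klf7 as 1 member of 7 beside 9.20% of genes, at -0.96 (SE 0.18, adjusted p = 0.00119), and at -0.90 after the length and GC correction (adjusted p = 0.000854). For Klf4 it was 0.36 (adjusted p = 0.0577) and for Klf13 0.19 (adjusted p = 0.0776) as deposited, and both passed beside 12.2% of genes after the correction (0.33, adjusted p = 0.0483, and 0.18, adjusted p = 0.0337) and without Pam3csk4 1 h replicate 1 (0.45, adjusted p = 0.0342, and 0.24, adjusted p = 0.0453). For Klf2 it was 0.32 (adjusted p = 0.105), and it passed without AmTARS 1 h replicate 3 (0.43, adjusted p = 0.0481).

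At 3 h, 3 of 7 factors differed between the ligands beside 17.1% of genes. Klf7 was lower with AmTARS than with Pam3csk4 by 0.66 (SE 0.13, adjusted p = 0.000791), while Klf4 was higher by 0.33 (SE 0.08, adjusted p = 0.00808) and Klf13 by 0.18 (SE 0.05, adjusted p = 0.00947). Corrected, they stood at -0.64, 0.30 and 0.15 and these 3 passed beside 22.0% of genes. For Klf4 the call was lost without AmTARS 3 h replicate 1 (0.32, adjusted p = 0.0613). For Klf13 it was lost without AmTARS 3 h replicate 1 (adjusted p = 0.064) or 3 (adjusted p = 0.0677) and without Pam3csk4 3 h replicate 3 (adjusted p = 0.0561). The libraries of Pam3csk4 at 3 h differed more from each other than those of other groups, with a chi-square per degree of freedom of 9.11, where counting error alone gives about 1 and the other groups had 3.58 to 5.0.

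At 1 h, 0 of 7 factors differed between the ligands in limma beside 0.184% of genes, and 0 by voom. In limma 3 had an unadjusted p below 0.05, and the share of all genes at that looser threshold was not computed. Those 3 were Klf10 at -0.20 (95% interval -0.31 to -0.09), Klf2 at -0.21 (-0.39 to -0.04) and Klf7 at 0.30 (0.03 to 0.57), given as AmTARS over Pam3csk4. The other 4 intervals were -0.11 to 0.23 for Klf3, -0.21 to 0.14 for Klf4, -0.10 to 0.08 for Klf6 and -0.11 to 0.08 for Klf13. Equal responses of these 4 genes are not shown by that. The corrected count was 0 of 7 beside 0.238%.

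**Figure D3:**
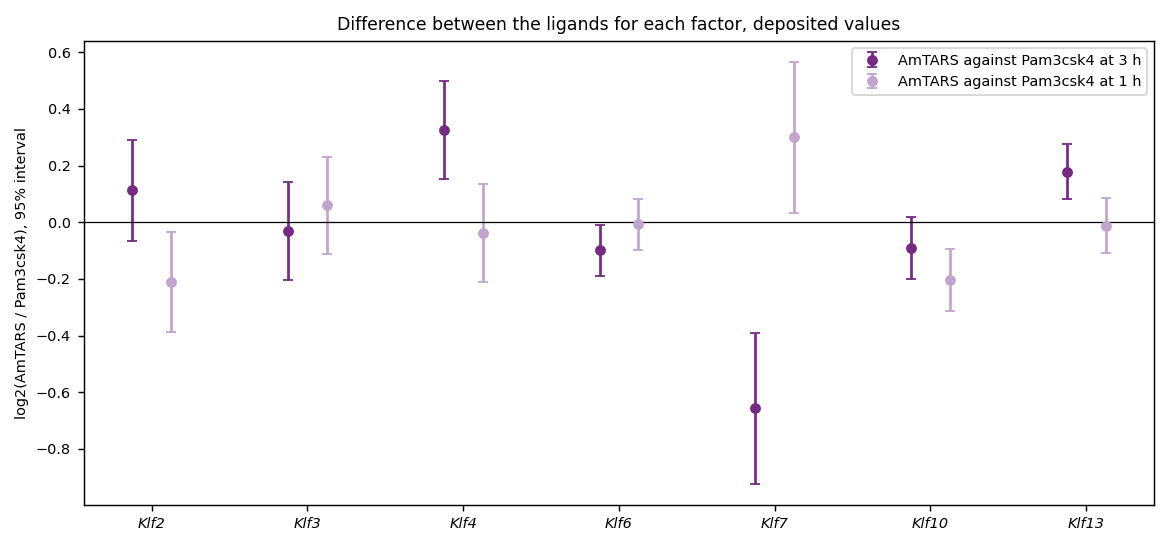
Log2 ratio of AmTARS over Pam3csk4 (vertical axis, points, with 95% intervals that are not adjusted for the number of genes) for each factor at 3 h and at 1 h, from the deposited values. At 3 h Klf7 lies at -0.66 and Klf4 at 0.33, and at 1 h no factor passed the adjusted test.

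Set beside genes of like transcript length, Klf7, Klf3 and Klf10 lay under the middle 50% of genes and Klf2 above it with either ligand at 1 h, whereas Klf13, Klf6 and Klf4 lay within it. The longest 20th of tested genes (569 genes, median 9626 nt) had a median log2 fold change of -0.33 with AmTARS at 1 h and -0.34 with Pam3csk4 at 1 h, while the shortest (569 genes, median 785 nt) had 0.31 and 0.39. Klf13, with 6396 nt, had -0.26 and -0.25 in the same comparisons. Klf2 has a GC content of 61.6%, above that of 98.2% of the genes of the table, and its longest transcript is longer than that of 21.8% of them.

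**Figure D4:**
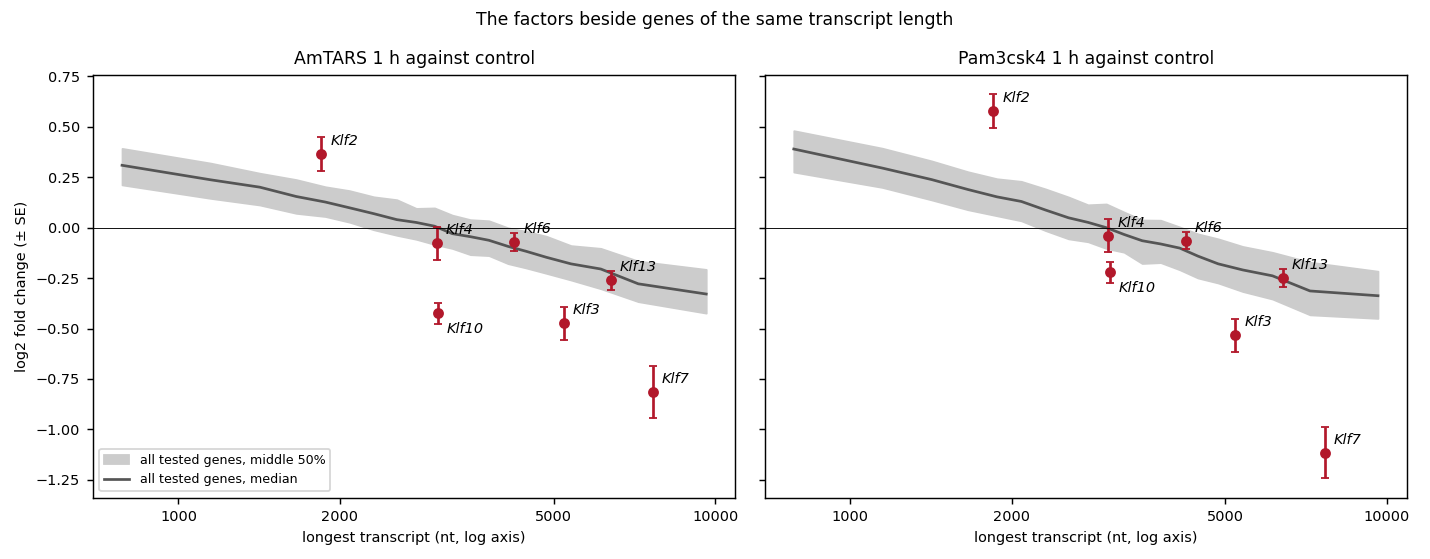
Log2 fold change at 1 h (vertical axis) against the longest transcript in nt (log axis) for the 7 factors (points, ± SE) and for all tested genes in 20 bins of length (line, median; band, middle 50%). Klf2, Klf3, Klf7 and Klf10 lie outside the band in both panels.

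Per length of the longest transcript, the order of the factors was Klf6, with a mean of 69.8 CPM per kb over the 10 libraries, then Klf13 (23.5), Klf10 (17.96), Klf2 (7.26), Klf4 (4.13), Klf3 (3.17) and Klf7 (0.301). The library ranges of Klf13 (20.7 to 27.4) and Klf10 (14.95 to 20.7) met at their ends, and those of Klf4 (3.27 to 4.83) and Klf3 (2.504 to 4.19) overlapped, while the other neighbours in this order did not overlap. Among all genes of the table, the mean CPM of Klf6 stood above that of 96.1% and that of Klf7 above 10.1%.

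**Figure D5:**
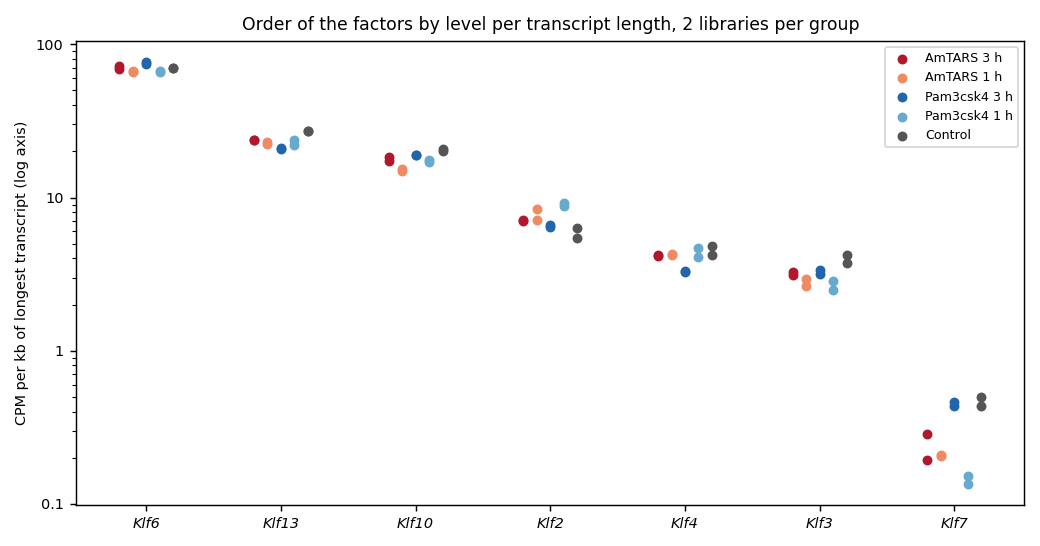
Level of each factor in CPM per kb of its longest transcript (vertical log axis) in every library, coloured by group, with factors ordered by mean. Klf6 lies highest, between 66.0 and 76.9 CPM per kb, and Klf7 lowest, between 0.135 and 0.496.

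The genes whose levels followed those of a factor most closely over the 10 libraries were sought among 1575 tested genes whose group means spanned at least 0.5 on the log2 scale, for the 3 factors that spanned as much. For Klf7 these were Ptafr, the receptor of platelet-activating factor (Pearson's r = 0.992), Rel, an NF-kB subunit (0.988), and Slc44a1, a choline transporter gene (0.986). Rel had 5.64 and 6.58 CPM with AmTARS at 3 h and 5.94 and 5.69 CPM with AmTARS at 1 h. With Pam3csk4 Rel had 9.64 and 9.21 CPM at 3 h and 5.0 and 5.5 CPM at 1 h, against 9.54 and 8.99 CPM in control. As for Klf7, the AmTARS libraries and those of Pam3csk4 at 1 h lay under the other 4. Rel was picked for its likeness to Klf7 over these libraries, so this is not a separate result. For Klf2 they were Inafm1 (0.979), Hspb1, a small heat shock protein gene (0.951), and Fuom (0.947). For Klf3 they were Cbl, a ubiquitin ligase gene (0.989), Ankrd11 (0.985) and Wasf2, an actin regulator gene (0.984). These values describe libraries that share groups and the length trend. The longest transcripts of the genes like Klf3 run to 5642 to 11372 nt, of those like Klf7 to 3637 to 7466 nt and of those like Klf2 to 872 to 1605 nt. Among the 7 factors, Klf2 ran against Klf7 (r = -0.90, or -0.83 after the length and GC correction) and against Klf3 (-0.86, or -0.72). Klf3 ran with Klf7 (0.85, or 0.75) and with Klf10 (0.81, or 0.79). Klf4 ran against Klf6 (-0.77, or -0.80) and with Klf13 (0.75, or 0.85). The pair with the largest r in size was Klf2 and Klf7 as deposited, and Klf4 and Klf13 after the correction.

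Of the 20 other Klf and Sp symbols, 10 had values and were tested. With AmTARS at 3 h 1 was higher and 4 were lower, with AmTARS at 1 h 0 and 5, with Pam3csk4 at 3 h 1 and 5, and with Pam3csk4 at 1 h 1 and 4. In the same order of groups 18.8%, 18.9%, 24.7% and 23.9% of all tested genes were higher and 17.9%, 19.8%, 24.2% and 24.8% were lower. The median log2 fold changes of the 10 genes were -0.22, -0.25, -0.29 and -0.16. On the deposited values Sp4 was lower in all 4 groups, by 0.53, 0.45, 0.45 and 0.63 in that order, and Klf9, a repressor related to Klf13, by 0.34, 0.34, 0.56 and 0.56. After the length and GC correction only 1 of the 10 genes was lower with AmTARS at 1 h, so Sp4 and Klf9 did not both pass there. Sp3 fell most with Pam3csk4 at 1 h (-0.52), Sp7 was lower with Pam3csk4 at 3 h (-0.57) and Klf16 was higher there (0.49). The 2 libraries of Pam3csk4 at 3 h had 4.44 and 2.33 CPM of Sp7 (151 and 84 reads). The control libraries had 4.77 and 5.95 CPM, so the fall of Sp7 rests mostly on 1 library. Sp1, the founding member of the Sp genes, averaged 52.6 ± 0.315 CPM with AmTARS at 3 h, 52.3 ± 3.999 CPM with AmTARS at 1 h, 53.1 ± 1.14 CPM with Pam3csk4 at 3 h, 50.6 ± 3.49 CPM with Pam3csk4 at 1 h and 69.4 ± 2.63 CPM in control (SD, n = 2 each). Corrected, these 10 genes gave higher and lower counts of 0 and 2, 0 and 1, 1 and 5, and 0 and 3 in the same order of groups, beside 18.4%, 13.9%, 42.0% and 22.8% of all genes called in either direction, and medians of -0.14, -0.13, -0.16 and -0.08.

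Of 10 coregulators through which Kruppel-like factors act or are degraded, 1 was higher and 6 were lower with AmTARS at 3 h, 1 and 6 with AmTARS at 1 h, 2 and 4 with Pam3csk4 at 3 h, and 1 and 6 with Pam3csk4 at 1 h. These counts stand beside 36.7%, 38.7%, 48.9% and 48.7% of all tested genes called in either direction. The medians were -0.19, -0.20, -0.07 and -0.23 in that order. On the deposited values Wwp1, a ubiquitin ligase that targets Klf2, fell by 0.40, 0.26, 0.82 and 0.35 in that order. Ep300 and Crebbp, acetyltransferases used by Klf2 and Klf4, fell there by 0.51 and 0.49 with AmTARS at 3 h and by 0.69 and 0.62 with Pam3csk4 at 1 h. Whether these falls of Ep300 and Crebbp held after the length and GC correction is not given here. Corrected for length and GC, in limma 0 of these genes were higher and 3 lower with AmTARS at 3 h, 1 and 3 with AmTARS at 1 h, 3 and 2 with Pam3csk4 at 3 h, where Wwp1 fell by 0.64, and 1 and 3 with Pam3csk4 at 1 h. All genes called were then 18.4%, 13.9%, 42.0% and 22.8%, and the medians of the list -0.076, -0.0086, 0.00093 and -0.027.

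Of 8 genes of the MEK5, ERK5 and MEF2 route to Klf2 and Klf4, 0 were higher and 3 lower with AmTARS at 3 h, 1 and 4 with AmTARS at 1 h, 1 and 4 with Pam3csk4 at 3 h, and 0 and 4 with Pam3csk4 at 1 h. Of all tested genes 17.9%, 19.8%, 24.2% and 24.8% were lower in that order. The medians of the list were -0.06, -0.10, -0.24 and -0.13. Mef2c fell by 0.80 with Pam3csk4 at 3 h (SE 0.10, adjusted p = 1.51e-06, limma), against a fall of 0.37 with AmTARS at 3 h. It averaged 19.7 ± 1.11 CPM with AmTARS at 3 h, 21.2 ± 1.44 CPM with AmTARS at 1 h, 14.5 ± 3.13 CPM with Pam3csk4 at 3 h, 19.7 ± 0.825 CPM with Pam3csk4 at 1 h and 25.7 ± 1.23 CPM in control (SD, n = 2 each). Mef2a was lower by 0.46 with Pam3csk4 at 3 h, and Map3k3, a kinase upstream of MEK5, by 0.41 with Pam3csk4 at 1 h. Corrected for length and GC, Mef2c fell by 0.63 with Pam3csk4 at 3 h, while its other values against control lay between -0.15 and -0.03 and did not pass. The corrected higher and lower counts of the 8 genes were 1 and 2, 1 and 1, 1 and 4, and 1 and 2, with medians of -0.05, -0.02, -0.19 and -0.05, beside 18.4%, 13.9%, 42.0% and 22.8% of genes called.

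Of 9 genes of TGF-beta signalling, the pathway that induces Klf10, 1 was higher and 5 were lower with AmTARS at 3 h, 0 and 4 with AmTARS at 1 h, 1 and 4 with Pam3csk4 at 3 h, and 0 and 6 with Pam3csk4 at 1 h, with medians of -0.14, -0.16, -0.07 and -0.27, beside 17.9%, 19.8%, 24.2% and 24.8% of all tested genes lower. With the length and GC correction 2 were higher and 1 lower, 1 and 0, 2 and 3, and 1 and 4 in the same order, with medians of -0.05, -0.06, -0.03 and -0.11, beside 18.4%, 13.9%, 42.0% and 22.8% of genes called. The excess of lower over higher calls with AmTARS was thus not kept. The receptor genes Tgfbr1 and Tgfbr2 fell by 0.67 and 0.51 with Pam3csk4 at 3 h, and by 0.51 and 0.25 after the length and GC correction. Of 13 macrophage genes linked to Klf2 or Klf4 in mouse studies, 4 were higher and 2 lower with AmTARS at 3 h, 3 and 3 with AmTARS at 1 h, 10 and 3 with Pam3csk4 at 3 h, and 4 and 2 with Pam3csk4 at 1 h, with medians of 0.13, 0.08, 0.66 and 0.13, beside 18.8%, 18.9%, 24.7% and 23.9% of all tested genes higher. The shares of all tested genes lower were 17.9%, 19.8%, 24.2% and 24.8%. Retnla, also on that list, had no row. With the correction 2 were higher and 0 lower, 1 and 1, 10 and 3, and 2 and 3 in the same order, beside 18.4%, 13.9%, 42.0% and 22.8% of genes called. The corrected medians were 0.02, -0.03, 0.50 and 0.02. Tnf rose by 1.02 on the log2 scale with AmTARS at 3 h, by 1.48 with AmTARS at 1 h, by 3.07 with Pam3csk4 at 3 h and by 2.75 with Pam3csk4 at 1 h. Nos2 rose by 2.27 and Il6 by 2.25 with Pam3csk4 at 3 h. The 3 lower genes there were Mrc1 (mean of 66.8 CPM against 85.0 CPM in control), Pparg (7.29 against 8.82) and Plin2 (1609 against 1814).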

How the data were processed

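Poly-A selected RNA was made into stranded libraries, per the labels' protocols, and STAR 2.5.1, R 3.3.0 and genome build mm10 are named in the submitters' processing notes. How reads were counted and scaled, and with which annotation, is not given in the sources used here. Values of 11617 genes in 10 libraries were deposited as log2(CPM + 1), and with 1 factor per library 100% of them gave whole reads to within 0.1 read. No gene had under 3 reads in a library, so genes silent in some group are not analysed here.

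The 11407 genes whose mean reached 1 CPM were tested. limma 3.58.1, run in R 4.3.3, fitted the deposited log2 values with a mean for each of the 5 groups (intensity trend, 5 residual and 14.7 prior degrees of freedom), for 9 comparisons, with Benjamini-Hochberg adjustment within each. On simulated data without a length trend limma recovered 22% of 1.25-fold, 90% of 1.5-fold, 90% of 2-fold and 100% of 4-fold changes. There 50 genes changed at each of these sizes, in AmTARS at 1 h alone, and all genes had a dispersion of 0.005. In the data 4415 genes were called in that comparison, so these shares need not hold for the data. Of the 158 calls on the simulated data, 7 were false. SE is the moderated standard error. Positions are those of the whole genes in GENCODE M21. Each gene took the length and GC content of its longest basic transcript there, with older symbols matched through unambiguous RefSeq synonyms. The correction fitted natural splines (5 degrees of freedom each) to each library's deviations from the gene mean. Promoters are from RefSeq. Figures used matplotlib 3.10.9 in Python 3.11.15. The 7 factors were always named. From the other lists the called genes with the largest changes against control were named, up to 5 for the Klf and Sp genes and up to 3 for the rest. Sp1, Mrc1, Pparg and Plin2 were added after their values were seen. The members, lists, tests and most alternatives were chosen with earlier results of these data known. Replicate numbers from the titles were not taken to pair the libraries, and whether they do cannot be told from the values.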

Additional observations from a re-analysis of the deposited data

Results flagged for a closer look

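The change of Klf7 between the times differed between the ligands. With AmTARS Klf7 stood at 0.12 on the log2 scale at 3 h relative to 1 h, and with Pam3csk4 at 1.08, so the interaction of ligand and time was -0.96 (SE 0.18, limma adjusted p = 0.00119). Leaving out 1 library at a time gave -1.14 to -0.78, all past the test. Klf7 was the least abundant of the 7 factors, and the interaction rests on 28 to 121 reads per library in these 4 groups. Of the 7 factors, Klf7 was the 1 whose interaction passed on the deposited values. With the replicate number as a block it did not pass in limma (-0.65, adjusted p = 0.121). The block with the length and GC correction gave -0.68 (adjusted p = 0.0765).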

How the results depend on the processing

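Of 63 results on single factors 30 passed the test, and 10 of these held their call and direction under each of the 20 settings that tested them. Over the 9 comparisons 0.184% to 48.9% of all tested genes passed as deposited. How many calls of other genes held under every setting was not counted. These 10 were Klf7 with AmTARS at 1 h and Pam3csk4 at 1 h, Klf7 between the ligands at 3 h and between the times of Pam3csk4, Klf4 and Klf13 with Pam3csk4 at 3 h, Klf2 and Klf4 between the times of Pam3csk4, and Klf3 and Klf10 with AmTARS at 1 h. Klf7 has a mean of 2.31 CPM and was not tested where the mean had to reach 5 CPM, which left 0 factors with an interaction in limma. The planned count fits with edgeR and DESeq2 were not run, since the deposited unit is log2. Fits by voom on recovered reads, and CPM over the reads in the listed genes, were added after seeing the data. The cause of the changes below was not tested.

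After the length and GC correction 2095 genes changed with AmTARS at 3 h (4186 as deposited), 1582 with AmTARS at 1 h (4415), 2590 with Pam3csk4 at 1 h (5556) and 469 between the times of AmTARS (271). It called 3 factors, where the deposited values called 5, with AmTARS at 3 h and at 1 h, and 3 in place of 1 for the interaction. Corrected values against control took the other sign for Klf6 at 1 h (0.043 with AmTARS, 0.095 with Pam3csk4) and for Klf2 (-0.049) and Klf7 (0.19) with Pam3csk4 at 3 h. Quantile scaling turned Klf6 with AmTARS (-0.064) and Pam3csk4 (-0.012) at 3 h and Klf7 with Pam3csk4 at 3 h (0.047), and called 2 interactions. CPM over the reads in the listed genes turned Klf6 with AmTARS at 3 h (-0.055). With the compared groups alone, 492 genes changed between the times of AmTARS and 42 between the ligands at 1 h, where the fit over all groups called 21.

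Same-numbered libraries did not deviate together throughout (r from -0.18 to 0.20 over 4 pairs of groups), so the numbers were not taken to pair them. These few values cannot exclude that they do. A fit with the replicate number as a block called 2017 genes and 2 factors with AmTARS at 3 h, and 672 genes and 0 factors for the interaction, where Klf7 stood at -0.65 (adjusted p = 0.121). Under the block Klf4 with Pam3csk4 at 1 h was 0.036 and between the times of AmTARS 0.060, and Klf3 was -0.018 between the ligands at 1 h, 0.047 at 3 h and 0.065 for the interaction. The block with the length and GC correction called 1677 genes and 3 factors with AmTARS at 1 h, 872 and 0 with AmTARS at 3 h, and 1262 and 1 with Pam3csk4 at 1 h. Calls lost in limma with Pam3csk4 at 1 h were Klf2 (0.24, adjusted p = 0.0792), Klf3 (-0.26, adjusted p = 0.056), Klf10 (-0.15, adjusted p = 0.0882) and Klf13 (-0.079, adjusted p = 0.318). In that fit Klf6 stood at 0.043 with AmTARS at 1 h and 0.085 with Pam3csk4 at 1 h, Klf2 at -0.049 and Klf7 at 0.19 with Pam3csk4 at 3 h, Klf4 at 0.048 between the times of AmTARS, and Klf3 at -0.025 between the ligands at 1 h, 0.030 at 3 h and 0.055 for the interaction.

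Leaving out 1 library at a time, the changed genes numbered 1997 to 4438 with AmTARS at 3 h, 2603 to 4702 with AmTARS at 1 h, 3844 to 5629 with Pam3csk4 at 3 h, 3759 to 5800 with Pam3csk4 at 1 h, 1141 to 2103 between the ligands at 3 h, 15 to 34 at 1 h, 89 to 381 between the times of AmTARS, 2381 to 3490 between those of Pam3csk4 and 675 to 1333 for the interaction. Factors called numbered 2 to 5, 4 to 5, 2 to 4, 5 to 5, 1 to 3, 0 to 0, 0 to 1, 4 to 6 and 1 to 3 in that order. Values that changed sign ranged from -0.19 to 0.00042 for Klf4 and -0.013 to 0.039 for Klf6 with AmTARS at 3 h, from -0.17 to 0.016 for Klf4 with AmTARS at 1 h, from -0.11 to 0.039 for Klf7 with Pam3csk4 at 3 h and from -0.13 to 0.053 for Klf4 with Pam3csk4 at 1 h. Between the ligands they ranged from -0.078 to 0.016 for Klf3 at 3 h, and at 1 h from -0.024 to 0.14 for Klf3, -0.12 to 0.046 for Klf4, -0.016 to 0.0015 for Klf6 and -0.059 to 0.035 for Klf13. Between the times of AmTARS Klf7 ranged from -0.060 to 0.30. Where a group was left with 1 library, that library was assumed to vary like the other groups. None of the sign changes from leaving out a library concerns a result that passed the test.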
